A study of Mus musculus with 2 samples.

Results

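The genes of blood coagulation and fibrinolysis were examined in cultured mouse hepatocytes with and without Drp1, as 32 genes chosen by symbol and found as the transcript probes carrying those names on both arrays. All 32 were on the array, out of 37074 gene names, and were covered by 51 probes. The study asked what loss of Drp1, the dynamin-related GTPase that divides mitochondria and is encoded by *Dnm1l*, does to the liver and its response to endotoxin. The hepatocytes measured here had received no endotoxin. Control cells came from littermates with loxP sites in both *Drp1* alleles (*Drp1* flox/flox, labelled wild type control) and *Drp1*LiKO cells from *Drp1* flox/flox mice that also carried 1 copy of the Alb-Cre transgene, both with C57BL/6 as the labelled strain background. Cre was driven by the albumin promoter, so deletion was directed to hepatocytes, and other liver cells kept the gene. The hepatocytes were released by collagenase perfusion, pelleted by a slow spin, plated on collagen I in medium with insulin and serum, and harvested 24 h after seeding. The methods give an age and sex for purchased C57BL/6J mice, and do not give them, or the number of mice, for the crosses behind these cultures. RNA labelled with Cy3 was hybridised in 1 color to 60-mer Agilent mouse arrays, with 1 array per genotype. No test between the genotypes was therefore possible, and every difference below is between 2 arrays, with no replicate check.

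Coagulation turns soluble fibrinogen into a fibrin clot through a chain of proteases that activate each other on membranes. Tissue factor starts the chain, the vitamin K-dependent factors and their cofactors carry it to thrombin, and antithrombin, the protein C system and tissue factor pathway inhibitor hold it back. Plasmin, made from plasminogen by tissue-type or urokinase-type activator, later dissolves the clot. Hepatocytes secrete most of the soluble factors and inhibitors, while endothelial cells, macrophages, platelets and stromal cells are main sources of several of the rest. For the description below, 21 genes were placed among those secreted by hepatocytes, 9 among those made mainly by other cells (*F3*, *F8*, *Vwf*, *F13a1*, *Tfpi*, *Thbd*, *Plat*, *Plau* and *F2r*), and 2 as enzymes of the vitamin K cycle.

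The probes behind the results on fibrinogen, kininogen and tissue-type plasminogen activator are shown because *Fga* and *Kng1* had several detected probes, *Fgb* is the chain set against *Fga*, and *Plat* had the lowest ratio of the set. Each is a 60-mer on the strand of the transcript, located in mm9. The fibrinogen alpha probe lies at chr3:82835678-82835737 on the plus strand and the fibrinogen beta probe at chr3:82846334-82846393 on the minus strand. The first kininogen probe starts at chr16:23077602 and ends at chr16:23079064 on the plus strand, a span that crosses an intron, and the second lies at chr16:23079732-23079791. The *Plat* probe lies at chr8:23892531-23892590 on the plus strand, and the capitals in it mark the first stop codon in the frame that opens at its first base. No capitals were set in the others.
*Fga*: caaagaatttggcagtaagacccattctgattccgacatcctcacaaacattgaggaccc
*Fgb*: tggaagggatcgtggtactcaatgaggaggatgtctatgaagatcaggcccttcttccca
*Kng1*, probe across an intron: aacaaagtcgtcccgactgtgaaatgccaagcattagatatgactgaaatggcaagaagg
*Kng1*, probe of NM_001102411: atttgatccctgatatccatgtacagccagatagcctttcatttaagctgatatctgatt
*Plat*: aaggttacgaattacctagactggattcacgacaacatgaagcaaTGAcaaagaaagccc

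Across the arrays, the 75th percentile of the processed signal was 313 on the control array and 356 on the *Drp1*LiKO array, and 48.2% and 52.1% of the transcript probes were well above background. Signals below are processed signals in arbitrary units, and each log2 ratio is *Drp1*LiKO minus control after each array was scaled to its 75th percentile. Summed signals are not scaled, and the brightest genes of a list weigh most in them. A gene was represented by its brightest probe, and was called higher or lower when its ratio lay at least 2 SD from the mean of all 30275 detected probes (Z score of 2, log2 ratio of 1.30 or -1.31). Among the 20165 genes detected, 3.5% were called higher and 2.81% lower, and 44.5% were higher by any amount. As a measure of technical error, probes printed 10 times on each array had a median SD between spots of 0.04 (log2), and the resulting SD of a ratio between arrays was 0.05 to 0.24 for the brightest probes of these genes. It covers spot noise only. *Dnm1l*, the gene deleted in hepatocytes, had a signal of 2602 on the control array and 1217 on the *Drp1*LiKO array (log2 ratio -1.28, Z score -1.95), so it was lower on the array labelled *Drp1*LiKO, just short of the call. Its other detected probe gave -0.31.

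Of the 32 genes, 29 were detected, 28 of them well above background on both arrays. *F8*, *F13a1* and *Vwf* were not well above background on either. Of the 29, 16 were higher and 13 lower in *Drp1*LiKO hepatocytes, 3 were called higher (*Thbd*, *Plau* and *Tfpi*) and 1 lower (*Plat*). All 4 belong to the genes placed among those made mainly outside hepatocytes, and none of the 21 hepatocyte-secreted genes was called. *Tfpi* was kept through the *Drp1*LiKO array alone, and has no value when both arrays must be above background. That split depended on the processing, since *F13b*, a hepatocyte-secreted gene, was called higher under 6 of 12 alternative settings and *F7* lower in the authors' normalized table. The median ratio of the 29 was 0.19, beside -0.05 over all detected genes. Of the 29, 17 lay within 0.5 (log2) of no difference, a smaller share than the 75.1% of all detected genes. The ratios of *Klkb1*, *F5* and *Ggcx* lay within 2 spot-noise SDs of 0, a limit that leaves out variation between cultures. Because the RNA came from whole cultures, fewer cells of a type and less RNA per cell cannot be told apart.

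**Figure D1:**
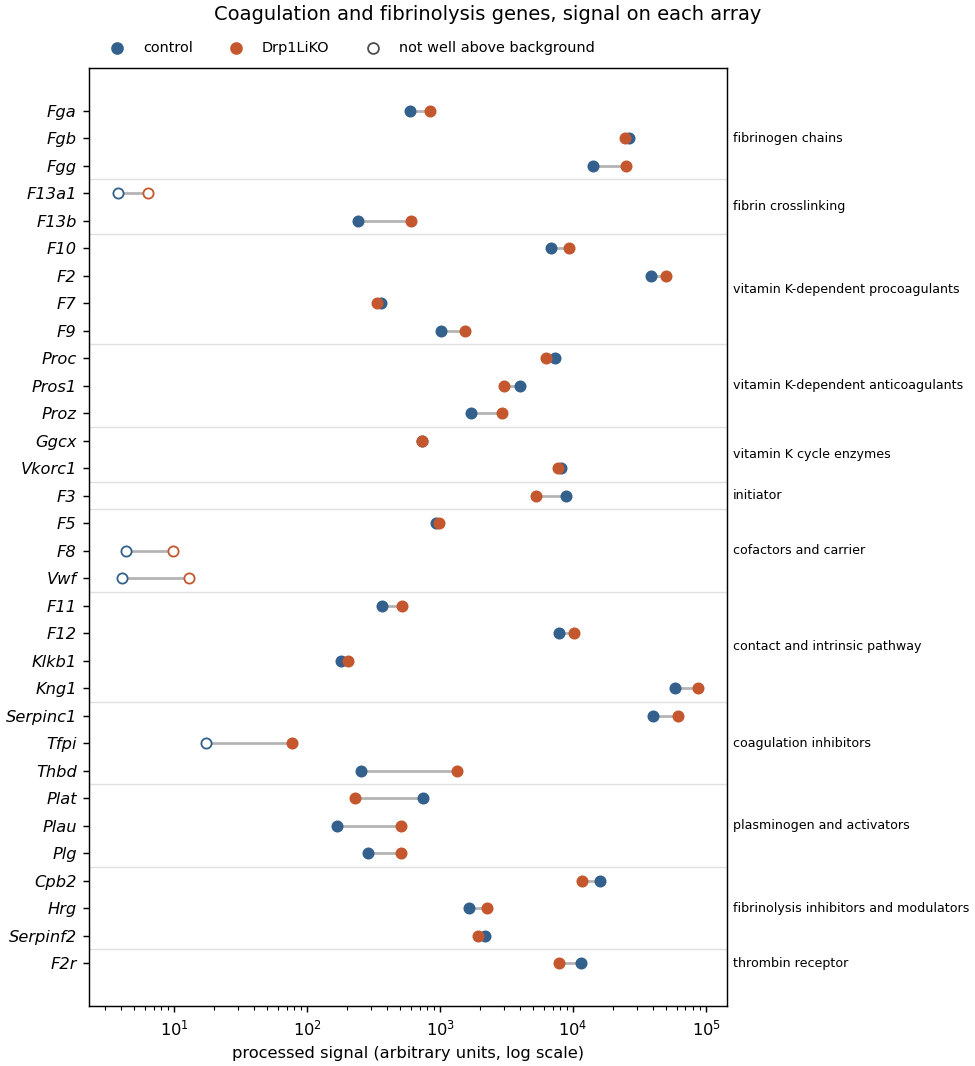
Processed signal (arbitrary units, log scale) of each of the 32 genes on the control (blue) and *Drp1*LiKO (orange) arrays, grouped by role, with 1 point per array for the brightest probe. Open points were not well above background. Most pairs lie close together, while *Thbd*, *Plau* and *Tfpi* lie further right and *Plat* further left in *Drp1*LiKO.

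The hepatocyte-secreted genes went both ways. All 21 were detected on both arrays, 13 were higher and 8 lower, their median ratio was 0.26 and their ratios ran from -0.62 (*Cpb2*) to 1.14 (*F13b*). Within 0.5 (log2) of no difference lay 15, beside 75.1% of all detected genes, with 4 above that (*F13b*, *Fgg*, *Plg* and *Proz*) and 2 below it (*Cpb2* and *Pros1*). Their summed signal was 228731 on the control array and 300140 on the *Drp1*LiKO array. Beside them, the 15 hepatocyte markers detected, albumin and transthyretin among them, were higher in 8 and lower in 7, 1 of them called higher, with a median ratio of 0.02 and summed signals of 1328550 and 1429560.

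The 3 chains of fibrinogen, which assemble in the hepatocyte into 1 hexamer, did not have the same direction. *Fgg*, the gamma chain, had signals of 14048 in control and 24810 in *Drp1*LiKO (log2 ratio 0.64), whereas *Fgb*, the beta chain, had 26157 and 24423 (-0.28). The alpha chain gave different answers by probe. The brightest *Fga* probe, printed above, had 596 and 843 (0.32), and a probe 1582 bases further toward the 3′ end of the same transcript had 85.1 and 28.5 (-1.76, Z score -2.68). Both probes were well above background on both arrays, and the distance between them is the same in the genome and in the transcript, so no intron lies between them. Which of the 2 follows the *Fga* message was not tested. The genes lie side by side on chromosome 3, so these opposite ratios came from neighbours.

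Factor XIII crosslinks fibrin, as a pair of catalytic A subunits carried in plasma by B subunits. *F13b*, the carrier subunit, had a signal of 240 on the control array and 600 on the *Drp1*LiKO array (2.21-fold higher, Z score 1.76), the largest ratio among the hepatocyte-secreted genes. It passed 2-fold, as 5.32% of all detected genes did in that direction, but not the Z score. A call was reached under 6 of the 12 alternatives (normexp background correction, both arrays above background, no filter on dim probes, the local and the robust Z score, and the 2-fold threshold). With *F13b*, 4 of the 29 genes were at least 2-fold higher and 1, *Plat*, at least 2-fold lower, as were 4.59% of all detected genes. *F13a1*, the A subunit of macrophages and platelets, stayed at or under 6.3 on both arrays by all 3 of its probes.

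Promoters of the fibrinogen alpha and beta genes are shown because both hold the same liver motif while their brightest probes had ratios of opposite sign (0.32 and -0.28). The 250 bases before the annotated start are given from RefSeq (GRCm38.p6), on the strand of the gene, with TTGCNNAA, a form of the site of C/EBP factors, or its complement in capitals. They lie at chr3:83025903-83026152 on the plus strand for *Fga* and at chr3:83049864-83050113 on the minus strand for *Fgb*.
*Fga*: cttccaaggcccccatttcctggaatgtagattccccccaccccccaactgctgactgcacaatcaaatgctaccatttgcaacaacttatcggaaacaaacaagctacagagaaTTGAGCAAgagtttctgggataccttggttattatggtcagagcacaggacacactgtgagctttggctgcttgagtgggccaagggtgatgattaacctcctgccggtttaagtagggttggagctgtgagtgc
*Fgb*: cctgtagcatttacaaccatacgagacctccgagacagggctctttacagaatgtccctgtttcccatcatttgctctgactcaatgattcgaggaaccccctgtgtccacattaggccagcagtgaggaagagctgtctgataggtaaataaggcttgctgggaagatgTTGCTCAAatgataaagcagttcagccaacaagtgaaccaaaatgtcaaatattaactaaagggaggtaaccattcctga

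RefSeq promoters were given for 25 of the 32 genes, 18 of them hepatocyte-secreted, and 4 short motifs were searched on both strands of the same 250 bases. A gene was counted when any of its promoters held the motif. The percentages are per promoter, so they are not in the same unit as the gene counts. TTGCNNAA was found in 7 of the 25 (*F11*, *F9*, *Fga*, *Fgb*, *Ggcx*, *Hrg* and *Klkb1*), 6 of them hepatocyte-secreted, and in 9.56% of all 32851 promoters. TTCNNNGAA, the STAT site through which interleukin 6 acts on acute-phase genes, was found in 4 (*F9*, *Fga*, *Fgb* and *Pros1*) against 7.02%, the FOXA form TGTTTAC in 3 (*F11*, *Klkb1* and *Vkorc1*) against 3.17%, and CAAAGGTCA, a form of the HNF4 site, in *F7* alone against 0.43%. A match of these letters is a description of the sequence and not of binding.

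The messages of transcription factors and signalling genes that act on hepatic promoters were also read. Of 14 hepatic regulators and interleukin 6 signalling genes, all detected, 8 were higher and 6 lower, with a median ratio of 0.03. *Nr1i3*, the nuclear receptor CAR, was the only one called, with signals of 19.9 and 104 (2.20) by 1 detected probe. Its control signal was just above 18.2, the lowest signal well above background on that array. *Stat3* was slightly higher (0.36, with 0.06 for its other detected probe) and *Cebpa* slightly lower (-0.36). The lowest were *Nr1h4*, the bile acid receptor FXR (-1.03, with -0.12 for its other detected probe), and *Il6st*, the signalling chain of the interleukin 6 receptor (-0.92, with -0.74).

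Among the vitamin K-dependent procoagulant proteases, 3 of 4 were higher, by small amounts. *F9*, mutated in hemophilia B, had the largest ratio of the 4, with signals of 1014 and 1527 (0.41). *F10*, whose product cleaves prothrombin, had 6832 and 9300 (0.26), and *F2*, prothrombin itself, had 38612 and 49874 (0.19). *F7*, the protease that binds tissue factor, was the only one lower, with 357 and 333 (-0.28), and it is the gene whose value depended most on the source: the authors' normalized table gives it a ratio of -1.47. *F2* also changed sign in that table, to -0.15.

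The vitamin K-dependent anticoagulants went both ways. *Proc*, the zymogen of activated protein C, had 7303 and 6205 (-0.42). *Pros1*, the cofactor protein S, had 4001 and 2999 (-0.60), and its second detected probe gave -0.54. *Proz*, which helps to inhibit factor Xa, had 1695 and 2896 (0.59), and its other detected probes gave 0.58 and 1.13. The probes of *Pros1* and of *Proz* thus agree in sign within each gene. *F7*, *F10* and *Proz* are neighbours on chromosome 8, with ratios of -0.28, 0.26 and 0.59.

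The enzymes that make these proteins functional differed little. *Ggcx*, the carboxylase that modifies their glutamates, had 726 and 725 (-0.18), within 2 spot-noise SDs of no difference. *Vkorc1*, the reductase that recycles vitamin K and is blocked by warfarin, had 8087 and 7690 (-0.26), with -0.20 for its other probe. Both ratios come largely from the scaling of the arrays, which differ by 0.18 (log2) at their 75th percentile.

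The contact and intrinsic genes were higher in 3 of 4. *F11* had 364 and 516 (0.32), *F12*, which starts the contact pathway, had 7848 and 10127 (0.19), and *Klkb1*, plasma prekallikrein, had 180 and 202 (-0.02). *Klkb1* lies next to *F11* on chromosome 8 and was the gene closest to no difference. *Kng1*, the kininogen that carries prekallikrein and releases bradykinin, had 58459 and 86760 (0.39). Its other probes, both printed above, gave 15821 and 25388 (0.50) for the one across an intron and 2449 and 3795 (0.45) for the one of NM_001102411, so all 3 were higher by a similar ratio. Mouse *Kng2* is a close paralog, with 6596 and 10494 (0.49), and whether these probes share targets was not tested. *F5*, the cofactor of factor Xa, had 931 and 983 (-0.11), and *F8*, the cofactor of factor IXa made by endothelial cells, had 4.32 and 9.82 by its only probe, not well above background on either array.

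Plasminogen and the regulators of clot lysis from hepatocytes also split. *Plg* had 287 and 507 (0.64), from 1 detected probe, its other probe being at background. *Cpb2*, which removes the lysines that plasmin binds, had 15892 and 11723 (-0.62), the lowest ratio among the hepatocyte-secreted genes. *Serpinf2*, the plasmin inhibitor, had 2166 and 1918 (-0.36), and *Hrg*, a plasma glycoprotein that binds plasminogen, had 1652 and 2238 (0.26). *Serpinc1*, antithrombin, had 40096 and 61356 (0.43), while a dim second probe further 3′ had 37.9 and 30.4 (-0.50).

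**Figure D2:**
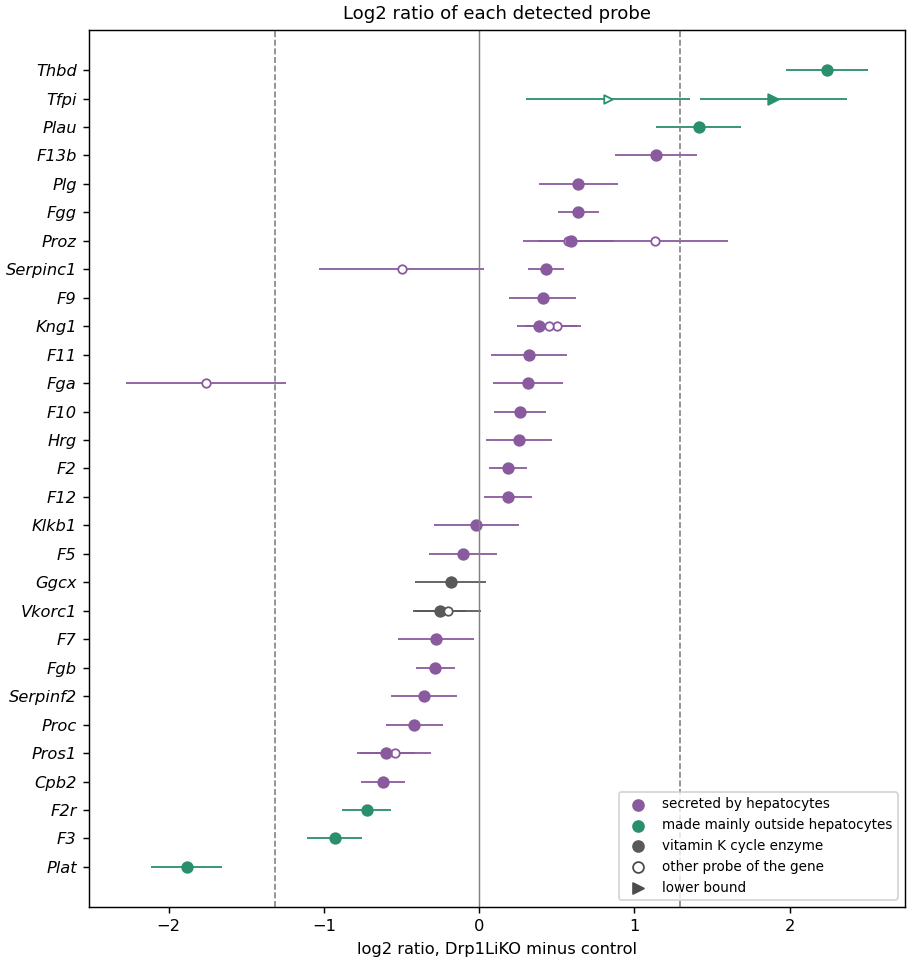
Log2 ratio (*Drp1*LiKO minus control) of each detected probe of the 29 detected genes, in order of the brightest probe (filled), with bars of 2 spot-noise SDs and dashed lines at a Z score of 2. The hepatocyte-secreted genes (purple) stay between the dashed lines apart from the second *Fga* probe at -1.76, and the genes made mainly by other cells (green) occupy both ends.

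The genes made mainly by other cells were the ones at the ends of the order. Of the 9, 6 were detected, 3 of them higher and 3 lower, and none lay within 0.5 (log2) of no difference. *Thbd*, thrombomodulin, the endothelial receptor that turns thrombin toward protein C, had a signal of 252 on the control array and 1349 on the *Drp1*LiKO array, 4.72-fold higher (2.24, Z score 3.45). *Thbd* has only 1 probe on the array. It was called under all 12 alternative settings, with ratios from 2.03 to 2.28, though many of these settings left its ratio unchanged. *Tfpi*, the inhibitor of the tissue factor and factor VIIa complex, was not well above background on the control array (17.3) and had 76.9 on the *Drp1*LiKO array, which makes it at least 3.72-fold higher. A second *Tfpi* probe, with 11.1 and 36.8, gave at least 1.78-fold, and the other 2 were at background. The call of *Tfpi* was lost under 3 settings, with normexp background correction, with the deposited values and with the Z score taken among probes of similar signal. Normexp gave 1.53-fold and the deposited values 2.08-fold, both under the bound.

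Both plasminogen activators were called, in opposite directions. *Plau*, the urokinase type, had 167 and 505, 2.66-fold higher (1.41, Z score 2.18), and *Plat*, the tissue type, had 747 and 229, 3.69-fold lower (-1.89, Z score -2.88). The other *Plau* probe (3.99 and 7.12) and the other *Plat* probe (4.09 and 3.40) were not well above background, so each rested on 1 probe. *Plat* was called under all 12 alternatives and *Plau* under 11, missing the Z score when dim signals elsewhere on the array were not raised to a floor.

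The remaining pair was lower without reaching the call. *F3*, tissue factor, the initiator of coagulation, had 8838 and 5261, 1.91-fold lower (-0.93, Z score -1.41), and it passed a Z score of 2 under 3 of the 12 alternatives. *F2r*, the thrombin receptor PAR1, had 11391 and 7824, 1.65-fold lower (-0.72). On the control array *F3* and *F2r* were brighter than every detected endothelial and Kupffer cell marker, but not than every stellate marker. Which cells of the cultures gave these signals was not tested. *Vwf*, the endothelial carrier of factor VIII, stayed at or under 12.9 on both arrays by all 3 of its probes.

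**Figure D3:**
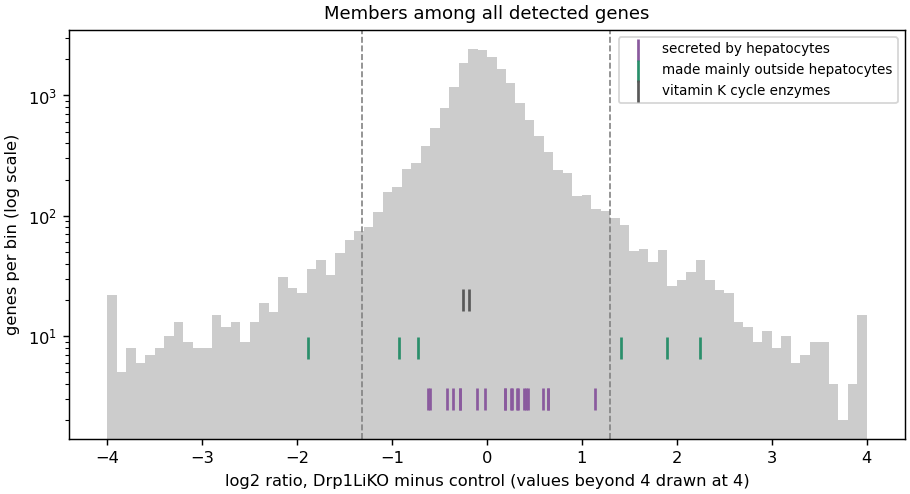
Distribution of log2 ratios (*Drp1*LiKO minus control) over the 20165 detected genes (grey, count per bin on a log scale), with a tick for each detected coagulation gene by its brightest probe and dashed lines at a Z score of 2. The 21 hepatocyte-secreted genes lie in the body of the distribution, and 4 of the 6 other-cell genes, *Tfpi* among them as a bound, lie beyond the dashed lines.

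Most detected markers of other liver cells were also higher on the *Drp1*LiKO array. All 14 endothelial markers were detected and higher, 9 of them called, with a median ratio of 1.52 and a summed signal of 5055 on the control array and 11496 on the *Drp1*LiKO array. All 14 detected markers of Kupffer cells and macrophages were higher, 10 called, with a median of 2.28 and sums of 11130 and 28994, and *Timd4* was not detected. Of 12 stellate markers 9 were detected, 7 higher and 4 called, with a median of 1.04, and the defining *Lrat* was not detected. The stellate sums of 29193 and 37420 rest mostly on *Acta2* and *Ecm1*, whose brightest probes gave ratios of 0.02 and -0.17. Of 7 platelet markers 3 were detected, all higher, with sums of 102 and 310, and *Ppbp*, *Gp1ba*, *Gp9* and *Gp6* were not detected. Of 8 neutrophil markers 3 were detected, 2 higher and 1 lower, with 1 called higher and a median of 0.38. Well above background on both arrays were 11 endothelial, 10 Kupffer cell, 6 stellate, 2 platelet and 1 neutrophil markers. The other detected markers were kept through the *Drp1*LiKO array alone, a filter that favors higher ratios. *Thbd*, *Tfpi* and *Plau* had the direction of most of these markers, and *Plat*, *F3* and *F2r* had the opposite one. *Vwf*, itself an endothelial gene, was not detected beside endothelial markers that were. The part of these cells in the ratios of the coagulation genes was not tested.

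**Figure D4:**
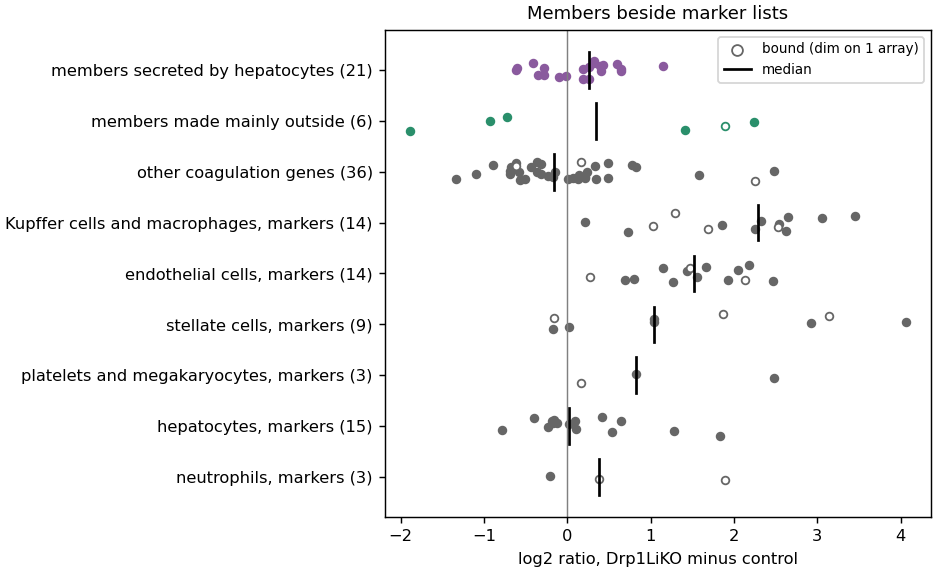
Log2 ratio (*Drp1*LiKO minus control) of each detected gene in the hepatocyte-secreted and other-cell coagulation genes, the wider list of coagulation genes and the marker lists, with the number detected in parentheses, black bars at medians and open points for bounds. The median of the hepatocyte-secreted genes is 0.26 and that of the hepatocyte markers 0.02, and those of endothelial (1.52) and Kupffer cell (2.28) markers lie further to the right.

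A wider list of 47 genes that act with these was read in the same way. Of them 36 were detected, 17 higher and 19 lower, 3 called higher and 1 lower, with a median ratio of -0.16. Over all detected genes, 44.5% were higher by any amount, 3.5% were called higher and 2.81% lower. The partners of the plasminogen activators were lower in 6 of 7. Among them were the receptor *Plaur* (-0.58), the inhibitor *Serpine2* (-0.89), the clearance receptor *Lrp1* (-0.18), and *Anxa2* (203737 and 185041, -0.32) with its partner *S100a10* (37491 and 26456, -0.69), which together bind plasminogen at the cell surface. None of the 6 was called. *Serpinb2*, an inhibitor of urokinase found in activated macrophages, was the exception, at 10.8 on the control array, not well above background, and 98.8 on the *Drp1*LiKO array, at least 4.78-fold higher.

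The other calls were on genes of platelets and on a protease receptor. *Pf4*, platelet factor 4, had 24.2 and 153 (2.48). *Itgb3*, the beta chain of the platelet fibrinogen receptor, had 68.7 and 233 (1.58) by its brightest probe while its other detected probe gave 0.14, and its partner *Itga2b* was near background (11.5 and 23.1). *F2rl1*, the protease receptor PAR2, had 115 and 51.7 (-1.34), so it was lower, as was *F2r*. *Fn1*, fibronectin, which is crosslinked into fibrin clots and was among the 3 brightest of the list, had 120035 and 137476 (0.01). Among other serpins and inhibitors of coagulation, 2 of 6 detected genes were higher and 4 lower, with a median of -0.47. The lowest of them, *Serpind1*, heparin cofactor II, passed 2-fold but not the Z score, with 1554 and 827 (-1.09).

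**Figure D5:**
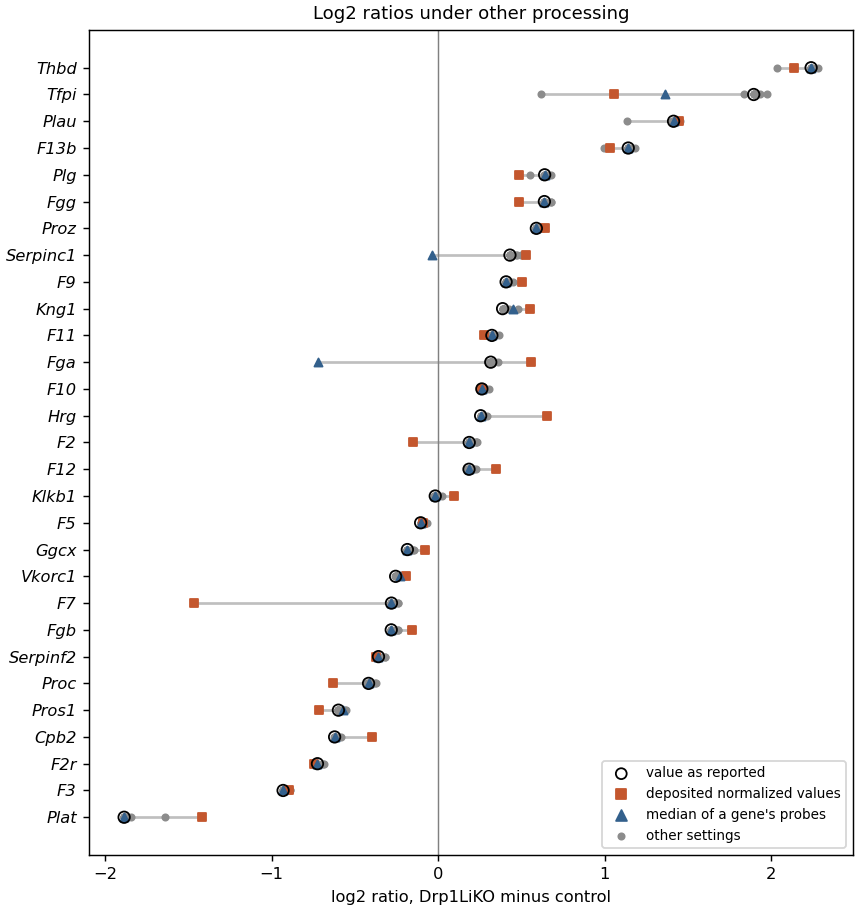
Log2 ratio (*Drp1*LiKO minus control) of each detected gene as reported (open circles) and under 12 alternative ways of processing the arrays, with the authors' normalized table and the median over a gene's probes marked apart. *Thbd* and *Plat* stay far from 0 under all of them, and *Fga*, *Serpinc1*, *F2* and *Klkb1* cross it.

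Of the 29 genes, 25 kept 1 sign under every alternative setting that gave them a value. *Fga* (-0.72) and *Serpinc1* (-0.03) turned when a gene was given the median of its probes, *F2* turned in the authors' table (-0.15), and *Klkb1*, at -0.02, turned there and under scaling by the spike-in probes.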

How the data were processed

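Total RNA of primary hepatocytes was measured on Agilent SurePrint mouse arrays, with 1 array per genotype. The number of cultures behind each array is not given. The authors deposited the intensity of each spot from Feature Extraction, version 9.5.1.1 per the labels, with the processed signal used here corrected for background by that software. They also deposited a table of normalized intensities, by a method not given in the sources used here. Its control column kept the order of the control array (rank correlation 0.999999) and its *Drp1*LiKO column followed its array less closely (0.958), so it served only as an alternative. Spots of both arrays came from 1 slide.

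Control spots and spots marked as outliers were removed, the log2 values of a probe's spots were averaged, and the 75th percentile of the array was taken off. A probe stayed if at least 1 array had it well above background. Dimmer signals were raised to the lowest signal well above background on that array (18.2 for control and 15.0 for *Drp1*LiKO), so ratios with such a signal are bounds. No spot was saturated. Spot noise of a probe was taken from the 10 probes nearest in signal among those printed 10 times. With 1 array per genotype the number of arrays limits the precision, and no test was run. The threshold of 2 on the Z score is the study's, and the scaling and the SD behind the score here are not stated there. Probe names, gene names and mm9 positions are those of the array's design. All 32 genes are described, each by its brightest probe and by its other detected probes. *Dnm1l* and regulators past a Z score of 2 are named. So are genes of the wider list past a Z score of 2 or among its 3 brightest on the control array. *Serpind1*, *Itga2b*, *Kng2*, *Acta2*, *Ecm1*, the other regulators named and the partners of the plasminogen activators were added after their values were seen. Other markers are given as counts. The genes and lists were chosen with earlier results of these data known. Processing used Python 3.11.15 with pandas 2.3.3 and numpy 2.4.6, and limma 3.58.1 in R 4.3.3 for the normexp correction. The scripts were tested on simulated data. Some results are not reported here.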

Additional observations from a re-analysis of the deposited data

How the results depend on the processing

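No paired analysis was possible because each genotype has 1 array. The 12 alternatives changed the scaling (by quantiles, by spike-in probes, or the deposited table), the background (normexp), the handling of dim probes (both arrays above background, no filter, or no floor), the outlier spots (kept), the Z score (local, among probes of similar brightness, or robust), the value of a gene (median of its probes) and the threshold (2-fold). Those of the filter, the floor, the Z score and the threshold leave the ratio of a gene with 1 bright probe unchanged. The genes called higher numbered 3 as reported and 2 to 4 under the alternatives. *F13b* took the place of *Tfpi* with normexp, with both arrays above background and with the local Z score, and was added as the fourth with no filter, the robust Z score and the 2-fold threshold. *Tfpi* has no value when both arrays must be above background. The genes called lower numbered 2, with *F3* added, under normexp, the local Z score and the robust Z score, and 2 in the deposited table, with *F7* added (-1.47). The median ratio of all detected genes of the set was -0.0174 with the median of a gene's probes. That of the genes made mainly outside hepatocytes rests on 6 genes on both sides of 0 and was -0.0391 with normexp, 0.15 in the deposited table, -0.72 with probes above background on both arrays and -0.47 with no filter. In the wider list, 5 were called higher with the robust Z score, and the number called lower was 2 with normexp, 2 at 2-fold, 3 with the local Z score, 3 with the robust Z score and 0 with no floor. The cause of these differences was not tested. *Fga*, *Serpinc1*, *F2* and *Klkb1* turned sign as given in the report. Dim signals limit *Tfpi*, *F8*, *F13a1*, *Vwf*, *Pf4*, *Nr1i3*, *Serpinb2* and the second *Fga* probe.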
